A study of Mus musculus with 6 samples.

Results

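The genes described here are 10 members of the circadian clock, Per1, Per2, Cry1, Cry2, Arntl, Clock, Nr1d1, Nr1d2, Dbp and Npas2, chosen by symbol from the 54532 genes of the deposited count table. All 10 were found there, each under 1 gene identifier. They were measured by RNA-seq in N9 microglia, an immortalized cell line derived from mouse brain that stands in for microglia as a single line. Control cells were left untreated, and the LPS group was given lipopolysaccharide, the endotoxin of gram-negative bacteria that microglia sense through a Toll-like receptor, at 1 µg/ml for 6 h. Each group held 3 libraries, grown alike in medium with serum. Whether these came from separate cultures is not given in the sources used here, so p-values measure only the spread between these samples. A single time after LPS was sampled, and no step to synchronise the cells is given in the sources used here.

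The mammalian clock is a transcriptional feedback loop that runs in nearly every cell, macrophages and microglia included. ARNTL, also called BMAL1, pairs with CLOCK or with its paralog NPAS2 and switches on genes through a DNA element named the E-box. Among these genes are Per and Cry, whose proteins return to the nucleus and shut off the pair that made them. The nuclear receptors NR1D1 and NR1D2, also called REV-ERB alpha and beta, repress Arntl through an element named the RORE, and NR1D1 is also known to repress inflammatory genes in macrophages. DBP is a transcription factor of the output arm, made under E-box control, that acts through the D-box.

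Promoter sequence was available for 9 of the 10 genes, as 13 windows of 250 bases before to 50 bases after a RefSeq start on GRCm38.p6. The stretches below are shown because they belong to the 3 genes that rose with LPS, Per1, Cry2 and Nr1d1, and to Cry1, the paralog of Cry2, which was not called. Each runs 5′ to 3′ on the gene's strand up to the first exon that GENCODE release M21 annotates within the window, and capitals mark the E-box CACGTG. The Per1 stretch is chr11:69098699-69098947 (+ strand), before a start that lies inside the annotated span of the gene. That of Cry1 is chr10:85185065-85185304 (- strand), that of Cry2 is chr2:92434044-92434319 (- strand) and that of Nr1d1 is chr11:98775334-98775627 (- strand).
Per1: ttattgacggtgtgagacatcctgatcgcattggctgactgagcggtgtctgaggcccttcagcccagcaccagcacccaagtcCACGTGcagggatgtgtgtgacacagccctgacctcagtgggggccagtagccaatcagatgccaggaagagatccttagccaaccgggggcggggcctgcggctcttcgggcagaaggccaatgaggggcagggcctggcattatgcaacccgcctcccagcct
Cry1: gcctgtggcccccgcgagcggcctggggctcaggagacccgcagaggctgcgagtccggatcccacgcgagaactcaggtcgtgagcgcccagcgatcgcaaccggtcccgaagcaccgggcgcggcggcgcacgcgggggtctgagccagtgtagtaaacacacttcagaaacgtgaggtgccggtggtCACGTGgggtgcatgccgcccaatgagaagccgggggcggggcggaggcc
Cry2: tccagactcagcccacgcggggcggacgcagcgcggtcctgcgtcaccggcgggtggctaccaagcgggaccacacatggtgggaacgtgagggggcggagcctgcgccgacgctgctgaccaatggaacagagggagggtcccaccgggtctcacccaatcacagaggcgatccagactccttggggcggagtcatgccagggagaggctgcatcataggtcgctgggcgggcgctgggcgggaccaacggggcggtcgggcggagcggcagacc
Nr1d1: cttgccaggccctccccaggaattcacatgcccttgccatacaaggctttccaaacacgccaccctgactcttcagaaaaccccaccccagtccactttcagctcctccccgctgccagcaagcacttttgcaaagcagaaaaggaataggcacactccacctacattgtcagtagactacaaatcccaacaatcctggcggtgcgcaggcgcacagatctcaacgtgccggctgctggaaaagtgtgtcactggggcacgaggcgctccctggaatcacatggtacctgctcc

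The E-box was found at -166 to -161 relative to the start in Per1 and at -60 to -55 in Cry1. No other window of the 13 held it, including that of a second Per1 start, and 7.15% of all 32851 RefSeq promoter windows did. The RORE, searched as TAGGTCA or TGGGTCA on both strands, was found in 1 window, that of the second Arntl start, 31 to 37 bases after that start, against 6.45% of all windows. None of the 13 windows held the D-box, searched as TTATGTAA or TTACGTAA (1.06% of all windows), or the cAMP response element TGACGTCA (1.79%). Of the genes with an E-box in these windows, Per1 rose and Cry1 was not called, and Cry2 and Nr1d1 rose without these letters in the window. A match is a description of the sequence, and a window without one says only that these letters are absent from it.

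The total count per library lay between 16363767 and 17956772, and 3 counts, taken as the floor, correspond to between 0.161 and 0.19 CPM. CPM here is the count scaled by library size with TMM factors. All 8 genes of a list of LPS response genes were higher in the LPS group. Nfkbia, the inhibitor of NF-kappa B that this pathway induces, had 1465, 1403 and 1709 counts in control libraries and 4283, 4587 and 4371 with LPS. All 12 microglia and macrophage markers were detected. Their summed level lay between 1920 and 2010 CPM in control libraries and between 1990 and 2030 CPM with LPS, but Aif1 had at most 9 counts and P2ry12 at most 6 in any library. Of the 10 tested, 2 were called higher and 3 lower, among them Trem2 at -0.52 (edgeR adjusted p = 1.92e-06), so the near-equal sums cover changes in both directions. Hepatocyte markers set 2 libraries apart. Their 15 genes summed to 17.3 and 26 CPM in control replicates 2 and 3, to 0.467 CPM in control replicate 1, and to between 0.305 and 0.791 CPM with LPS. Markers of other brain cells summed to 27.2 to 32.5 CPM for neurons, 95.9 to 105 CPM for astrocytes and 42.5 to 54.3 CPM for oligodendrocytes, of which 1 of 9, 0 of 7 and 2 of 8 genes were at 0 in every library (Gad2, and Sox10 and Olig2). The sums came mostly from a few genes and moved with LPS for some of them. Of the neuron markers, Tubb3 was called higher (1.67, edgeR adjusted p = 7.27e-07) and Map2 lower (-0.41), of the astrocyte markers Gja1 was called higher (0.18) and Aldh1l1 lower (-0.29), and of the oligodendrocyte markers Mbp was called lower (-0.34). Their part in the clock gene values was not tested. In bulk RNA, a change in the make-up of the cells and a change in RNA per cell cannot be told apart.

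In LPS-stimulated versus control N9 microglia, Per1, Cry2 and Nr1d1 rose 1.44- to 1.54-fold, and no member fell past the test. The paralogs of the last 2, Cry1 and Nr1d2, were not called, nor were the activators Arntl and Clock. Per2 and Dbp were not called either, with fitted changes in opposite directions. Npas2 was near the floor in all 6 libraries. The counts were tested with edgeR's quasi-likelihood test over 12296 genes that passed its filter on low counts, and a gene was called at a Benjamini-Hochberg adjusted p under 0.05. Of the 9 members tested, 3 were called (33.3%), all higher. Over all tested genes 34.3% were called, 18.7% higher and 15.7% lower, so the share among the clock genes was near the background. The median log2 fold change was 0.07 over the 9 members and 0.0036 over all tested genes. Scaling by library size alone put the median of all genes at -0.09, and called 1520 genes higher and 3342 lower in place of 2294 and 1927, with 3 members still called. No member passed the study's further threshold of an absolute log2 fold change over 1.5, which 2.65% of tested genes passed.

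**Figure D1:**
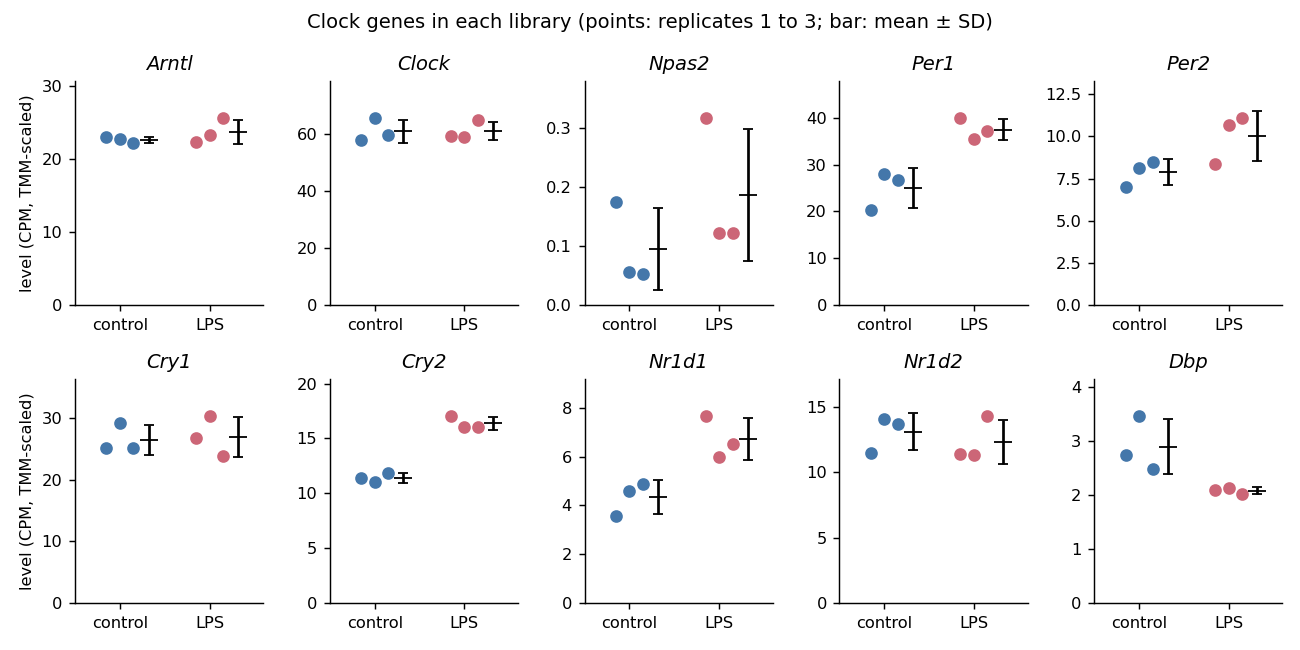
Level of each of the 10 clock genes (CPM of the TMM-scaled library, vertical axis from 0, its own scale in each panel) in the 3 control and 3 LPS libraries, with the mean ± SD beside the points. The LPS points lie above every control point for Per1, Cry2 and Nr1d1 and below every control point for Dbp, and overlap them in the other 6 panels.

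Arntl (ENSMUSG00000055116) encodes the obligate partner of the activating pair. It lies on chromosome 7 of the mm10 build from 113207465 to 113314126 on the + strand. Its level was 23.0, 22.8 and 22.1 CPM in control replicates 1, 2 and 3, and 22.4, 23.3 and 25.5 CPM in LPS replicates 1, 2 and 3. The groups overlapped, with the highest value in LPS replicate 3. The log2 fold change was 0.07 ± 0.08 (standard error, edgeR adjusted p = 0.572), with a 95% interval from -0.11 to 0.25.

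Clock (ENSMUSG00000029238) encodes the partner of ARNTL and lies on chromosome 5 from 76209868 to 76304792 on the - strand. It was the most counted member, at 57.9, 65.6 and 59.7 CPM in the control libraries and 59.5, 59.2 and 65.0 CPM with LPS. The groups overlapped throughout. Its log2 fold change was 0.0031 ± 0.06 (standard error, edgeR adjusted p = 0.975), and the 95% interval from -0.13 to 0.14 bounds any change at this depth more tightly than for the other members tested.

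Npas2 (ENSMUSG00000026077), the paralog that can replace CLOCK, lies on chromosome 1 from 39193731 to 39363236 on the + strand. It had 3, 1 and 1 counts in control libraries and 5, 2 and 2 with LPS, below the filter of the test. Summed over each group, 9 counts with LPS against 5 in control cells gave a ratio of 1.98 with an exact 95% counting interval from 0.595 to 7.51. The interval covers counting error only. No difference was detectable at this depth.

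Other annotated genes inside Arntl, Clock and Npas2 held few counts or none. Ube2n-ps1, a processed pseudogene on the strand of Clock, shares no exonic base with it, and had 13, 23 and 27 counts in control libraries and 13, 13 and 17 with LPS. Its groups overlapped (log2 fold change -0.41, edgeR adjusted p = 0.425). Gm43658 within Clock, Gm45355 opposite Arntl, which shares 33 exonic bases with it, and Gm20428 and Gm3617 within Npas2 had no count in any library.

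Per1 (ENSMUSG00000020893) lies on chromosome 11 from 69095217 to 69109960 on the + strand and encodes a repressor of the loop that is also known as an early responder to outside signals. Its level was 20.2, 28.0 and 26.7 CPM in the control libraries and 39.8, 35.4 and 37.1 CPM with LPS. The groups did not overlap, with LPS on top, and control replicate 1 was the lowest of all. Per1 rose 1.5-fold, by 0.58 on the log2 scale, with a standard error of 0.10 (edgeR adjusted p = 0.000469). Over the 6 fits that each dropped 1 library the log2 fold change ran from 0.44 to 0.66, and all 6 called it. Against control replicate 1 alone, the control library with few hepatocyte transcripts and the lowest in Per1, it was 0.89. A fit with 1 control library takes its spread from the LPS libraries only, and its values are given here and for the genes that follow without a test.

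Per2 (ENSMUSG00000055866) encodes the other main PER protein and lies on chromosome 1 from 91415982 to 91459324 on the - strand. It stood at 7.0, 8.15 and 8.49 CPM in control libraries and at 8.36, 10.7 and 11.1 CPM with LPS. LPS replicates 2 and 3 were above every control library, and LPS replicate 1 lay within the control range. The log2 fold change was 0.35 ± 0.14 (standard error, edgeR adjusted p = 0.0711), with a 95% interval from 0.05 to 0.65 before adjustment. Without LPS replicate 1 it was 0.46 and Per2 was called (edgeR adjusted p = 0.0211). It was called in none of the 5 other fits that dropped 1 library, in which the adjusted p reached 0.225. Against control replicate 1 alone, the lowest control library, the log2 fold change was 0.52.

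Cry1 (ENSMUSG00000020038), a cryptochrome that represses the ARNTL and CLOCK pair, lies on chromosome 10 from 85131700 to 85185064 on the - strand. Its level was 25.1, 29.3 and 25.2 CPM in control libraries and 26.8, 30.3 and 23.8 CPM with LPS. The LPS libraries spanned the whole control range. The log2 fold change was 0.03 ± 0.10 (standard error, edgeR adjusted p = 0.858), with a 95% interval from -0.18 to 0.24, and 0.11 against control replicate 1 alone.

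Cry2 (ENSMUSG00000068742), the second cryptochrome, lies on chromosome 2 from 92403646 to 92434043 on the - strand. It had 11.4, 10.99 and 11.8 CPM in control libraries and 17.0, 16.1 and 16.0 CPM with LPS. The groups were far apart for their spread, at 11.4 ± 0.419 and 16.4 ± 0.575 CPM (SD, n = 3). Cry2 rose 1.44-fold, by 0.52 on the log2 scale, with a standard error of 0.10 (edgeR adjusted p = 0.000696). This was the steadiest change among the 3 called members, from 0.49 to 0.54 over the fits that each dropped 1 library. Against control replicate 1 alone it was 0.53. The annotated RNA D930015M05Rik, on the opposite strand within Cry2, had no count in any library.

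Nr1d1 (ENSMUSG00000020889) lies on chromosome 11 from 98767932 to 98775333 on the - strand and encodes REV-ERB alpha. It had 61, 81 and 91 counts in control libraries and 121, 98 and 107 with LPS, or 3.56, 4.59 and 4.89 CPM against 7.66, 5.97 and 6.51 CPM. The lowest LPS library, replicate 2, was above the highest control library, replicate 3. Nr1d1 rose 1.54-fold, by 0.62 on the log2 scale, with a standard error of 0.17 (edgeR adjusted p = 0.0117). The call was lost without control replicate 1 (0.49, edgeR adjusted p = 0.0501) and without LPS replicate 1 (0.52, edgeR adjusted p = 0.0558), the lowest and the highest library. Against control replicate 1 alone, the lowest library, the log2 fold change was 0.92.

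The 3′ end of Nr1d1 overlaps that of Thra, the thyroid hormone receptor alpha gene on the opposite strand. By GENCODE release M21 they share 263 exonic bases, 8.55% of those of Nr1d1. How the counting used strand is not given in the sources used here, and without strand the reads of such a stretch cannot be told apart. Thra itself had 176, 128 and 164 counts in control libraries and 137, 152 and 145 with LPS. Its groups overlapped, and its log2 fold change was 0.02 ± 0.14 (standard error, edgeR adjusted p = 0.915).

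Nr1d2 (ENSMUSG00000021775), which encodes REV-ERB beta, lies on chromosome 14 from 18204054 to 18239127 on the - strand. It had 11.5, 14.1 and 13.7 CPM in control libraries and 11.4, 11.3 and 14.3 CPM with LPS. LPS replicates 1 and 2 were just under the lowest control library, and LPS replicate 3 was above the highest. The log2 fold change was -0.09 ± 0.12 (standard error, edgeR adjusted p = 0.642), with a 95% interval from -0.35 to 0.18, and 0.11 against control replicate 1 alone.

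Dbp (ENSMUSG00000059824) lies on chromosome 7 from 45705088 to 45710203 on the + strand. It had 47, 61 and 46 counts in control libraries and 33, 35 and 33 with LPS, or 2.74, 3.45 and 2.47 CPM against 2.09, 2.13 and 2.01 CPM. Every LPS library was below every control library, which held for 21.5% of all tested genes. The log2 fold change was -0.47 ± 0.23 (standard error, edgeR adjusted p = 0.14), with a 95% interval from -0.98 to 0.03, and none of the 13 alternative fits with more than 1 control library called it, with adjusted p from 0.0669 to 0.402. Against control replicate 1 alone the log2 fold change was -0.40. The part of the hepatocyte transcripts in the Dbp level was not tested.

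Sphk2, which encodes sphingosine kinase 2, overlaps the 3′ end of Dbp on the opposite strand. The genes share 539 exonic bases, 18% of those of Dbp. Sphk2 had 948, 989 and 962 counts in control libraries and 1155, 1232 and 1259 with LPS. All LPS libraries were above all control libraries. Sphk2 rose by 0.46 on the log2 scale, with a standard error of 0.05 (edgeR adjusted p = 6.48e-06). It was counted far more often than Dbp, and the part of the shared stretch in either value was not tested.

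**Figure D2:**
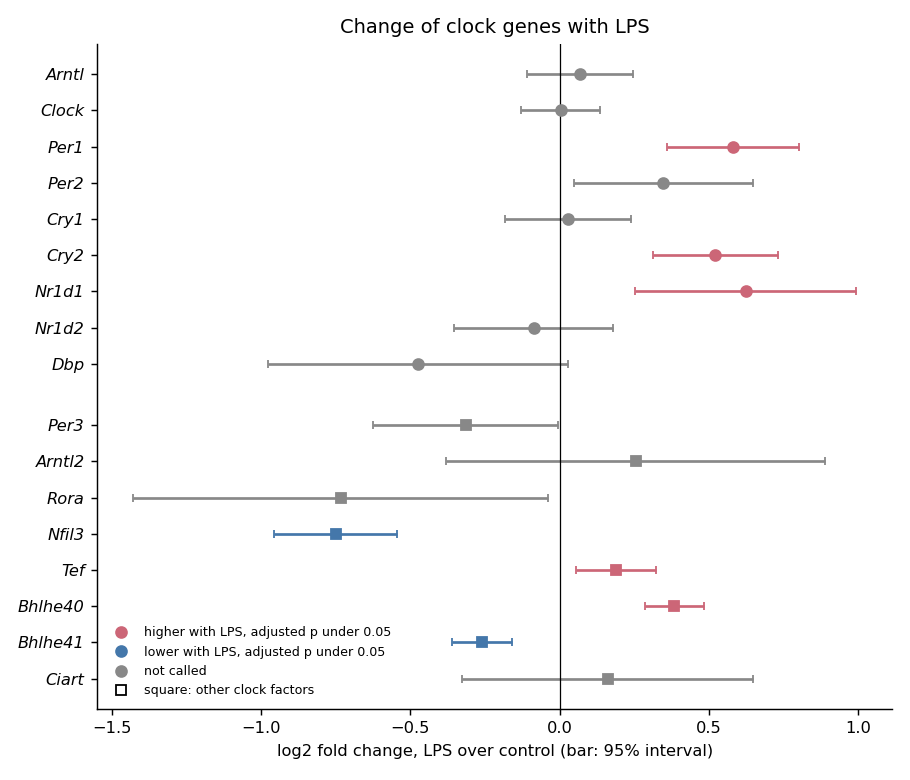
Log2 fold change of LPS over control (horizontal axis) with its 95% interval for the 9 clock genes tested (circles) and 8 other clock factors (squares), from edgeR; red and blue mark genes called higher and lower, grey marks genes not called. Per1, Cry2 and Nr1d1 sit between 0.52 and 0.62, Arntl, Clock, Cry1 and Nr1d2 sit within 0.1 of 0, and Nfil3 is at -0.75.

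Of the 9 members tested, 4 had groups that did not overlap (44.4%), beside 45.3% of all tested genes. The libraries of a group also differed in common ways. Control replicate 1 was the lowest of the control libraries for 6 of the 9 members, Per1, Per2, Cry1, Clock, Nr1d1 and Nr1d2. LPS replicate 1 was the highest of the LPS libraries for Per1, Cry2 and Nr1d1 and the lowest for Per2 and Arntl.

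Levels can be compared between genes only per length, and are given here as CPM per kb of the deposited gene length, which is the union of annotated exons for all 10 members. In control cells Cry1 was highest on this scale, at 7.93 ± 0.72 (SD, n = 3). Clock at 4.45 ± 0.295 and Per1 at 4.44 ± 0.741 followed and could not be ordered, since their libraries overlapped. Arntl was next at 3.01 ± 0.0579, then Nr1d2 at 2.42 ± 0.26 and Cry2 at 1.80 ± 0.0663, each with no overlap with its neighbour. Nr1d1 at 1.41 ± 0.227 and Per2 at 1.35 ± 0.134 overlapped, Dbp was at 0.965 ± 0.17, and Npas2 at 0.0199 ± 0.0144. The activating pair was therefore counted per length at a level between those of the cryptochromes.

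In LPS-treated cells the order on the same scale began with Cry1 at 8.09 ± 0.974 and Per1 at 6.65 ± 0.397, which no longer overlapped Clock at 4.46 ± 0.238. Arntl stood at 3.15 ± 0.219. Cry2 at 2.59 ± 0.091 was clear of Arntl and overlapped Nr1d2 at 2.28 ± 0.313, which in turn overlapped Nr1d1 at 2.18 ± 0.281. Nr1d1 no longer overlapped Per2, which was at 1.71 ± 0.25. Dbp and Npas2 remained last, at 0.694 ± 0.0213 and 0.039 ± 0.0235.

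**Figure D3:**
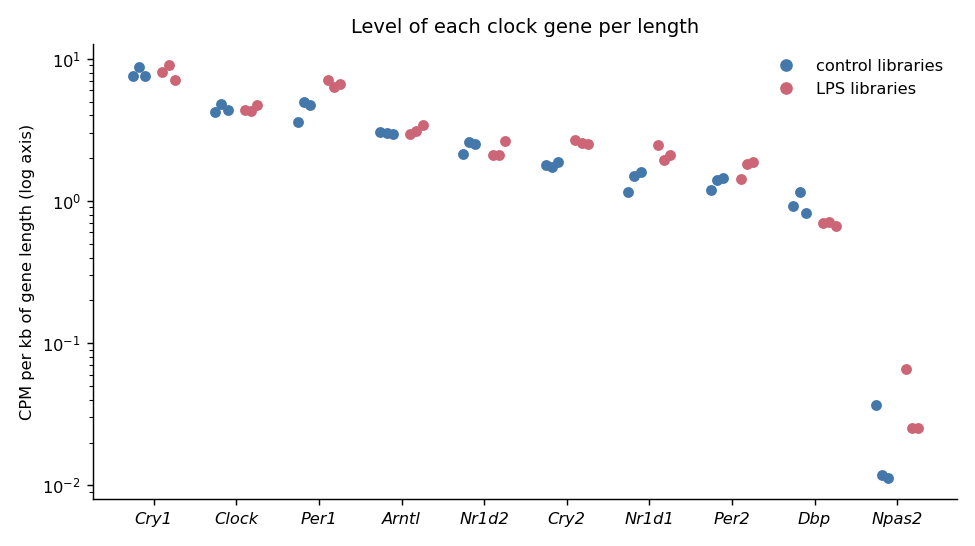
Level per length (CPM per kb of gene length, log axis) of the 10 clock genes in each control and LPS library, ordered by the control mean. Cry1 is highest in both groups, Per1 separates from Clock only in the LPS libraries, and Npas2 lies below all other genes in every library.

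Whether the genes of a pair responded differently was asked of 5 pairs, by the log2 ratio of their counts within each library. The ratio of Nr1d1 to Nr1d2 was -1.68, -1.61 and -1.48 in control libraries and -0.57, -0.92 and -1.13 with LPS. The groups did not overlap, and the ratio was 1.65-fold higher with LPS, a difference of 0.72 on the log2 scale. The ratio of Cry1 to Cry2 went from 1.21 ± 0.174 to 0.715 ± 0.177 (SD, n = 3), a difference of -0.50, also without overlap. The ratio of Arntl to Nr1d1, an activator to the repressor it induces, went from 2.39 ± 0.264 to 1.82 ± 0.244, a difference of -0.56 without overlap. In each of these 3 pairs the two-sided exact permutation test gave p = 0.1, the smallest that 3 libraries against 3 allow, or 0.167 after Benjamini-Hochberg adjustment over the 5 pairs. The test cannot reach 0.05 in this design. Groups without overlap were found for 45.3% of single tested genes, and the share over pairs of genes was not computed. Each of these pairs holds a called gene, Cry2 or Nr1d1, and the ratios with Nr1d2 and with Arntl share Nr1d1. They are therefore not results separate from the calls of those genes.

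The other pairs overlapped between groups. The ratio of Per1 to Per2 was 1.65 ± 0.125 in control libraries and 1.91 ± 0.296 with LPS (SD, n = 3; exact permutation p = 0.3, adjusted 0.3). Only LPS replicate 1, at 2.25, was above every control library, and without it the difference was 0.083. The ratio of Clock to Npas2 rested on 1 to 5 counts of Npas2 per library, and its difference of -0.81 gave the same exact permutation p = 0.3. It was -0.39 without LPS replicate 1, -1.27 without control replicate 1 and -0.5 with a prior count of 2, so single libraries and the prior count set its size.

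**Figure D4:**
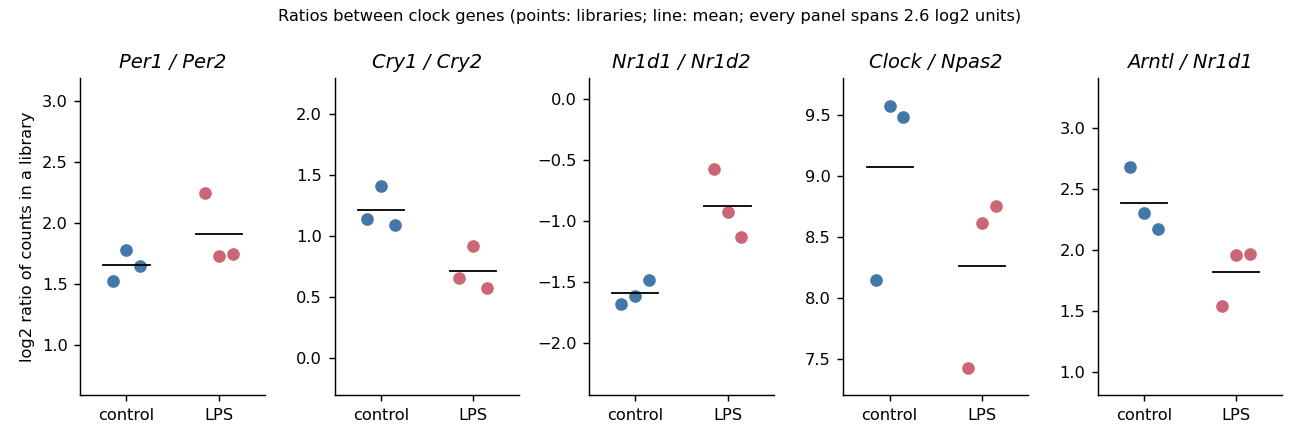
Log2 ratio of the counts of a pair of genes in each library (vertical axis, the same span of 2.6 log2 units in every panel), by group, with the group mean as a line. LPS and control libraries do not overlap for Cry1 to Cry2, Nr1d1 to Nr1d2 and Arntl to Nr1d1, and overlap for Per1 to Per2 and Clock to Npas2.

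Other genes of the clock were taken from 5 lists holding 50 genes, of which 44 were tested and 15 called (34.1%), 7 higher and 8 lower, near the 34.3% of all tested genes. Scaling by library size alone called 3 of them higher and 15 lower, and without control replicate 3 only 9 were called. Their median log2 fold change was -0.01. Of the genes called, only Nfil3 and Nampt changed by more than 0.5 on the log2 scale. The other genes of these lists named below were chosen after their values were seen.

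Among 11 other clock transcription factors and repressors, 8 were tested, 2 were higher, 2 lower and 4 not called, with a median of -0.05. Nfil3, a repressor that competes with DBP for the D-box, had 501, 490 and 573 counts in control libraries and 273, 321 and 252 with LPS. All LPS libraries were below all control libraries. Nfil3 fell by 0.75 on the log2 scale, with a standard error of 0.10 (edgeR adjusted p = 2.08e-05), and ran from -0.84 to -0.67 over the fits that each dropped 1 library. Bhlhe40 and Bhlhe41, also called DEC1 and DEC2, are paralogous repressors that bind the E-box, and they changed in opposite directions. Bhlhe40 rose from 89.4 to 117 CPM (log2 fold change 0.38, edgeR adjusted p = 1.05e-05) and Bhlhe41 fell from 86.0 to 71.8 CPM (-0.26, edgeR adjusted p = 0.000477), both called in all 13 alternative fits with more than 1 control library. Tef, a relative of Dbp, rose by 0.19 (edgeR adjusted p = 0.0292), but kept its call in only 2 of the 6 fits that dropped 1 library. These were the fits without control replicate 1 and without LPS replicate 2, while adjusted p reached 0.162 in the fit without control replicate 3. Its call was also lost with DESeq2 (adjusted p = 0.0948) and with library size alone in edgeR (0.092, adjusted p = 0.264). Per3, another Per gene, had every LPS library below every control library and a log2 fold change of -0.32 (edgeR adjusted p = 0.111). It was called with library size alone (-0.41, edgeR adjusted p = 0.0354). Rora, an activator at the RORE and so the counterpart of NR1D1, had 27, 23 and 25 counts in control libraries and 11, 16 and 14 with LPS. Its groups did not overlap, at a log2 fold change of -0.73 with a standard error of 0.32 (edgeR adjusted p = 0.0977).

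Among 13 kinases, ubiquitin ligases and partners of the clock proteins, 12 were tested, 1 was called lower and none higher. This was Gsk3b, at -0.16 (edgeR adjusted p = 0.0396), which kept its call in 1 of the 6 fits that dropped 1 library, that without control replicate 1, with adjusted p from 0.00272 to 0.144. DESeq2 did not call it (adjusted p = 0.0647), and against control replicate 1 alone its log2 fold change was -0.04. The casein kinases that phosphorylate PER proteins, Csnk1d and Csnk1e, had log2 fold changes of 0.06 and 0.12 (edgeR adjusted p = 0.391 and 0.235). Of 10 transcriptional cofactors, all tested, 1 was higher and 2 were lower, with a median of -0.01. Crebbp rose by 0.25 (edgeR adjusted p = 0.00371) and Sin3a fell by 0.29 (edgeR adjusted p = 0.00209), while Ncor1, the corepressor through which REV-ERB proteins act, was at -0.05 (edgeR adjusted p = 0.579).

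Of 7 output genes, 5 were tested, 2 were higher and 1 lower, with a median of 0.26. Nampt, the rate-limiting enzyme of NAD salvage and an E-box target, had 3707, 3929 and 3964 counts in control libraries and 5968, 6092 and 6034 with LPS. Its mean went from 217 ± 4.82 to 372 ± 5.5 CPM (SD, n = 3), a rise of 0.78 in log2 fold change with a standard error of 0.04 (edgeR adjusted p = 9.98e-10), and ran from 0.76 to 0.79 over the fits that each dropped 1 library. Alas1, whose enzyme starts the synthesis of heme, the ligand of NR1D1, rose by 0.31 (edgeR adjusted p = 0.000365). Cdkn1a fell by 0.15 (edgeR adjusted p = 0.0249), a call kept in 3 of the 6 fits that dropped 1 library and lost without control replicate 3, LPS replicate 2 or LPS replicate 3 (adjusted p up to 0.106). Of 9 input factors, all tested, 2 were higher and 2 lower, with a median of -0.01. Scaling by library size alone called 0 of them higher and 4 lower, and without control replicate 3 these counts were 1 and 1. Creb1, which drives Per1 through cAMP response elements, fell by 0.34 (edgeR adjusted p = 0.0039), and Hif1a rose by 0.22 (edgeR adjusted p = 0.00196). Against control replicate 1 alone the log2 fold change was -0.16 for Sin3a and -0.26 for Creb1. With library size alone, the calls of Crebbp (0.15, edgeR adjusted p = 0.054) and Hif1a (0.12, edgeR adjusted p = 0.0541) were lost.

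**Figure D5:**
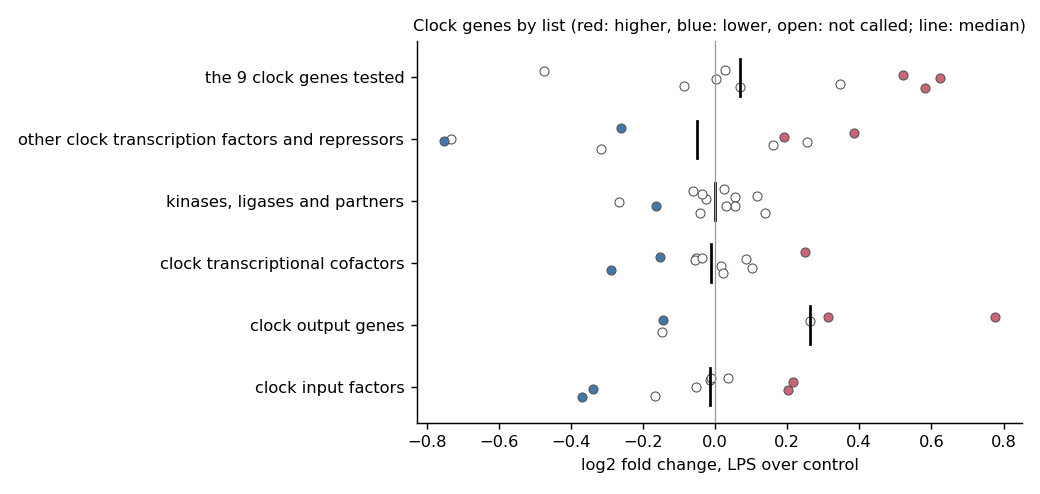
Log2 fold change of LPS over control (horizontal axis) for each tested gene of the clock genes and of 5 lists of related genes; red is called higher, blue called lower, open not called, and the line is the median. The medians lie between -0.05 and 0.26, and every list but the kinases and ligases holds genes called higher.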

How the data were processed

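RNA-seq of 6 libraries was used, 3 control and 3 LPS, grouped by their labels. The authors deposited raw read counts per gene, whole numbers without normalization. The submitters' processing notes name featureCounts 1.5.0-p3 and mm10. The aligner, the use of strand and the annotation release are not given in the sources used here. All 10 members had the position and strand of GENCODE release M21, whose union of exons equals the deposited gene length. The authors' table of their own DESeq2 comparison, which holds fold changes and p-values beside 18 columns of values per sample and 2 of group means, was not used.

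Counts were tested with edgeR 4.0.16 under R 4.3.3 (TMM, filterByExpr by group, prior count 0.125), and p-values were Benjamini-Hochberg adjusted over 12296 genes. A standard error is the log2 fold change divided by the square root of F, and 95% intervals use the fit's degrees of freedom. Pairs were compared by exact permutation with a prior count of 0.5. Libraries of a group differed by more than sampling noise (chi-square per gene 3.55 to 7.71). Counts were also simulated for this comparison. There edgeR recovered 87 of 100 genes changed by 0.5 and 100 of 100 changed by 1 on the log2 scale. Beside these it made 21 false calls among 12301 tested genes, a larger share of its calls than the threshold of 0.05. Changed genes were drawn only from well-counted genes, and all genes had the same dispersion. The recovery therefore does not cover genes with as few counts as Dbp or Rora. Alternatives were DESeq2 1.42.0, RLE factors, library size alone, no filter, a mean of 10 counts, robust dispersion, a replicate block, and libraries left out. Figures used matplotlib 3.10.9. Members and lists were chosen with earlier results of these data known. Genes named by rule are the members, called list genes with an absolute log2 fold change over 0.5, genes that overlap a member, and Nfkbia and Tnf, the latter not used. Some results on withheld items are not reported here.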

Additional observations from a re-analysis of the deposited data

How the results depend on the processing

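Per1 and Cry2 were called under all 13 alternatives with more than 1 control library and Nr1d1 under 11, and the number of members called by edgeR or DESeq2 stayed at 3 except for 4 with the replicate block and 2 without control replicate 1. Without LPS replicate 1 the 3 were Per1, Cry2 and Per2. Library size alone moved the median of all genes from 0.0036 to -0.09, and by that common shift Cry1 came to -0.071, Arntl to -0.029, Clock to -0.095 and Thra to -0.074. Members near 0 also changed sign in other fits. Cry1 ran from -0.064 to 0.11 with each library left out, at -0.021 without control replicate 1, -0.016 without control replicate 3 and -0.064 without LPS replicate 2. Clock was -0.0042 with DESeq2, -0.0035 with RLE size factors, -0.0044 without the filter, and from -0.044 to 0.051 with each library left out. The median over the genes of the main fit was -0.0036 with DESeq2, -0.0029 with RLE size factors and -0.0039 without the filter. Nr1d2 was 0.11 without control replicates 2 and 3 together, a fit whose lone control library is assumed to vary like the LPS libraries and whose calls are not counted here. Thra was -0.20 without control replicates 2 and 3 together, and from -0.10 to 0.14 with each library left out. The cause of these other sign changes was not tested. The genes called in the 5 lists numbered from 9 to 14 with each library left out.

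Same-numbered libraries correlated at 0.15, 0.08 and -0.01 in their deviations from the group means. Libraries of different number correlated at -0.17 to 0.10. The numbers were not taken to pair the libraries, a question that so few libraries cannot settle. With the replicate block 4474 genes, 17 of the list genes and 4 members were called, Per2 being the fourth (0.35, edgeR adjusted p = 0.0452). Npas2, tested only by DESeq2 and without the filter, was at 0.97 and 0.92 (edgeR adjusted p = 0.64 in the latter). The fewest counts among the members tested were those of Dbp and Nr1d1, at 33 to 121 per library, and their standard errors were the largest.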
